A study of Macaca mulatta with 4 samples.

Results

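The genes described here are 9 that define GABAergic interneurons or carry their neuropeptides: GAD1, GAD2, SLC32A1, LHX6, PVALB, SST, VIP, NPY and TAC1. They were chosen for their known roles, matched by symbol, and all 9 were found among the 33618 genes of the count table. RNA-seq was made of prefrontal cortex from wild type rhesus macaques (Macaca mulatta), with 2 control libraries (agent given as none) and 2 libraries of animals that inhaled sevoflurane, a general anaesthetic. Sevoflurane was given at about 2.5 to 3% for 4 hours on 3 occasions, the first near postnatal day 7 and the others 14 and 28 days later, and tissue was taken straight after the last. Both groups keep the replicate numbers 2 and 3 of their labels. The handling of control animals is not stated in the labels. Nothing states that replicates are separate animals, so each p-value reflects only the spread among these 4 libraries, which may be technical.

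GABA is the main inhibitory transmitter of the cortex. It is made from glutamate by the glutamate decarboxylases GAD1 and GAD2 and loaded into synaptic vesicles by the transporter SLC32A1. Cortical interneurons born in the medial ganglionic eminence keep the transcription factor LHX6 and mostly become PVALB or SST cells, while VIP cells arise in the caudal ganglionic eminence and largely inhibit other interneurons. Many interneurons also release peptides: SST encodes somatostatin, NPY neuropeptide Y, VIP vasoactive intestinal peptide and TAC1 the precursor of substance P. PVALB, a calcium-binding protein of fast-spiking cells, is known to appear late in cortical development.

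The shallowest library, control replicate 3, held 7793757 counts and the deepest, sevoflurane replicate 3, held 11706115. The 9 genes had 4313 to 6517 reads per library, 0.0496% to 0.0557% of the counts. Levels are given as CPM, counts divided by library size after TMM scaling and put on a common scale, and are compared between libraries only, since they take no account of gene length. Markers of cortical excitatory neurons were present in every library (10 of 10 found, summed level 4740 and 6810 CPM in controls and 5510 and 5300 CPM after sevoflurane, replicates 2 and 3 in that order). Of the 8 markers of striatal neurons, which also use GABA, SIX3 was too low to test. The 8 together had 182 and 189 CPM in controls and 185 and 181 CPM after sevoflurane. This sum hides unlike values, since the 7 tested had log2 fold changes from -0.45 for PDE10A to 1.05 for DRD2. Of the 7, 2 were positive and 5 negative, and none passed the test. General neuron markers were lowest in control replicate 2 (7380 CPM, against 8850 to 8940 CPM in the other 3 libraries). Mature oligodendrocyte markers were the group that differed most plainly, with 9320 and 14700 CPM in controls and 2430 and 3620 CPM after sevoflurane, and all 10 passed the test as lower. The part of these shifts in the values below was not tested.

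None of the 9 interneuron genes passed the test between sevoflurane and control. The test was edgeR's two-sided quasi-likelihood test with Benjamini-Hochberg adjustment over 17693 genes, and a gene was called at an adjusted p under 0.05, which 0.599% of all tested genes reached (106 genes: 11 higher, 0.0622%, and 95 lower, 0.537%). The 3 genes of GABA synthesis and loading and LHX6 had fitted values between 0.93-fold and 1.17-fold of control. SST and NPY had the lowest fitted values, 0.65-fold and 0.565-fold, and were the 2 of the 9 with an unadjusted p under 0.05, against 9.92% of all tested genes. DESeq2 and limma-voom called 0 of the 9 as well. The median log2 fold change of the 9 was 0.15, beside 0 over all tested genes. Leaving out control replicate 2 or 3 gave a median of 0.08 or 0.11, and leaving out sevoflurane replicate 2 or 3 gave 0.02 or 0.05. In bulk tissue, fewer cells of a type and less RNA of a gene per cell cannot be told apart.

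**Figure D1:**
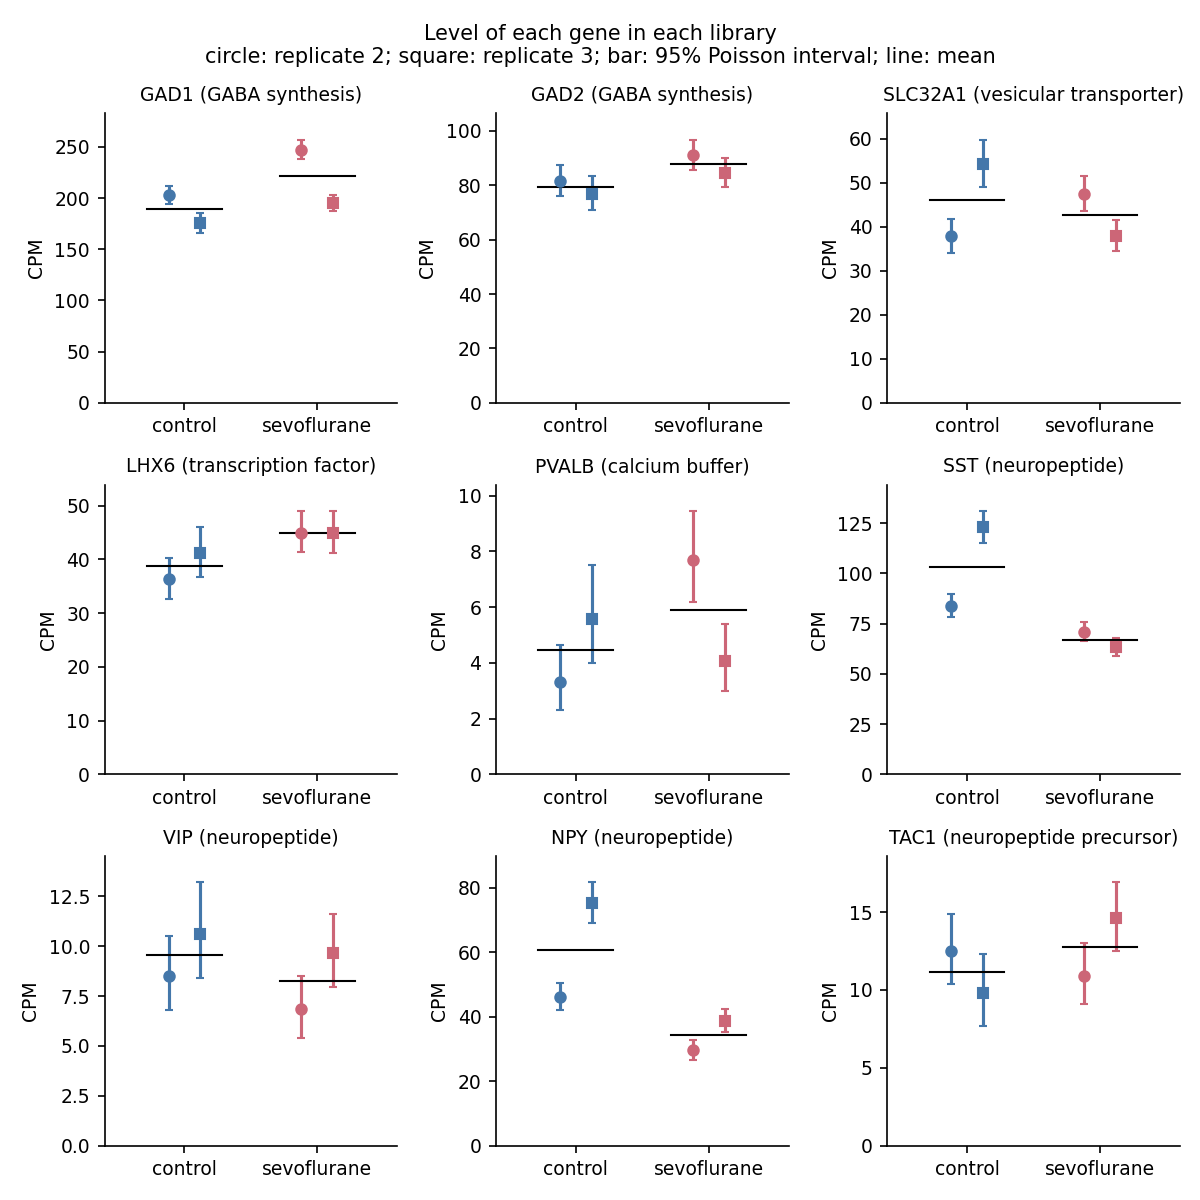
CPM (vertical axis, from 0) of each gene in the control and sevoflurane libraries, with circles for replicate 2, squares for replicate 3, bars for the 95% exact Poisson interval of each count (counting error only) and a line at the mean of 2 libraries. For SST and NPY both control libraries lie above both sevoflurane libraries, and control replicate 3 is the highest library of each.

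Values are given in the order replicate 2, replicate 3. GAD1, the decarboxylase that makes most of the GABA pool, had 203 and 176 CPM in controls and 247 and 195 CPM after sevoflurane. Sevoflurane replicate 2 was the highest library, while the other 3 interleaved, so the groups overlapped. The log2 fold change was 0.22 (SE 0.15, 95% interval -0.11 to 0.56, edgeR adjusted p = 0.701). GAD2, the form attached to synaptic vesicles, had 81.6 and 76.9 CPM in controls and 91.2 and 84.7 CPM after sevoflurane. Both sevoflurane libraries lay above both controls for GAD2, though by little: its means were 79.2 ± 3.3 and 87.9 ± 4.58 CPM (SD, 2 libraries each). Its fitted log2 fold change was 0.15 (SE 0.14, -0.16 to 0.46, adjusted p = 0.801). The highest and lowest libraries differed 1.19-fold for GAD2, the smallest range of the 9 genes.

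SLC32A1 had 37.8 and 54.2 CPM in controls and 47.4 and 37.8 CPM after sevoflurane. Control replicate 3 was its highest library and control replicate 2 its lowest, so the spread inside the control group was wider than the difference between groups (log2 fold change -0.11, SE 0.21, -0.58 to 0.37, edgeR adjusted p = 0.927). Its sign turned with single libraries left out, to 0.17 without control replicate 3 and 0.05 without sevoflurane replicate 3. For these 3 genes the upper interval bounds were 1.47-fold for GAD1, 1.37-fold for GAD2 and 1.29-fold for SLC32A1, and the lower bounds 0.925-fold, 0.896-fold and 0.671-fold. A larger difference in the RNA of any of the 3 lies outside its unadjusted 95% interval.

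LHX6, which specifies the lineage of PVALB and SST cells, had 36.3 and 41.2 CPM in controls and 45 CPM in each sevoflurane library. Both sevoflurane libraries lay above both controls, and the log2 fold change was 0.22 (SE 0.16, -0.15 to 0.58, edgeR adjusted p = 0.739). PVALB had the fewest reads of the 9 genes, 34 and 42 in controls and 90 and 48 after sevoflurane. These gave 3.32 and 5.57 CPM in controls and 7.69 and 4.07 CPM after sevoflurane, with Poisson intervals of 2.3 to 4.64, 4.01 to 7.53, 6.18 to 9.45 and 3 to 5.4 CPM. Sevoflurane replicate 2 was the highest library and control replicate 2 the lowest, with the other 2 between them. The log2 fold change of PVALB was 0.42 with an interval of -0.57 to 1.41 (SE 0.44, adjusted p = 0.834), the widest of the 9, and it was -0.11 without sevoflurane replicate 2. Values from 0.672-fold to 2.65-fold thus lie inside the interval of PVALB at this depth and number of libraries.

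SST had 83.7 and 123 CPM in controls and 70.8 and 63.2 CPM after sevoflurane. Both controls lay above both sevoflurane libraries, but control replicate 3 stood 1.47-fold above control replicate 2, a wider gap than the 1.12-fold between the sevoflurane libraries. The log2 fold change was -0.62 (SE 0.19, -1.05 to -0.19, edgeR unadjusted p = 0.00913, adjusted p = 0.276), rank 585 of all tested genes by p. Without control replicate 3 it was -0.32 (adjusted p = 0.331), and without control replicate 2 it was -0.87 (adjusted p = 0.00565), which passed the threshold with a single control library assumed to vary like the others. In that fit 607 genes (3.43%) were called.

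NPY had 46 and 75.2 CPM in controls and 29.6 and 38.7 CPM after sevoflurane. The order of the groups was that of SST, with control replicate 3 again the highest library, 1.64-fold above control replicate 2. The log2 fold change was -0.82 (SE 0.24, -1.37 to -0.28, edgeR unadjusted p = 0.00772, adjusted p = 0.257), rank 531. It was -0.43 without control replicate 3 (adjusted p = 0.32) and -0.64 without sevoflurane replicate 2 (adjusted p = 0.627). It passed the threshold without control replicate 2 (-1.14, adjusted p = 0.00667) and without sevoflurane replicate 3 (-1.03, adjusted p = 0.0439; 1.41% of genes called). So control replicate 3 took the values of both peptides further from 0. Neither turned in sign in any of the 12 alternatives. With both controls above both sevoflurane libraries, leaving out a single library could hardly turn it, so the kept sign adds no support.

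VIP had 8.49 and 10.6 CPM in controls and 6.83 and 9.67 CPM after sevoflurane, and the groups overlapped (log2 fold change -0.20, SE 0.30, -0.87 to 0.46, edgeR adjusted p = 0.894). TAC1 had 12.5 and 9.81 CPM in controls and 10.9 and 14.6 CPM after sevoflurane, again overlapping (0.19, SE 0.26, -0.40 to 0.78, adjusted p = 0.888). Both signs rested on 1 library, since VIP had 0.02 without sevoflurane replicate 2 and TAC1 had -0.03 without sevoflurane replicate 3. Of the 4 peptide genes, SST and NPY thus had both controls above both sevoflurane libraries and VIP and TAC1 did not. Across the 9 genes the groups did not overlap for 4, with controls above for 2 and sevoflurane above for 2, while 41.2% of all tested genes did not overlap (20.4% and 20.8% in those directions).

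**Figure D2:**
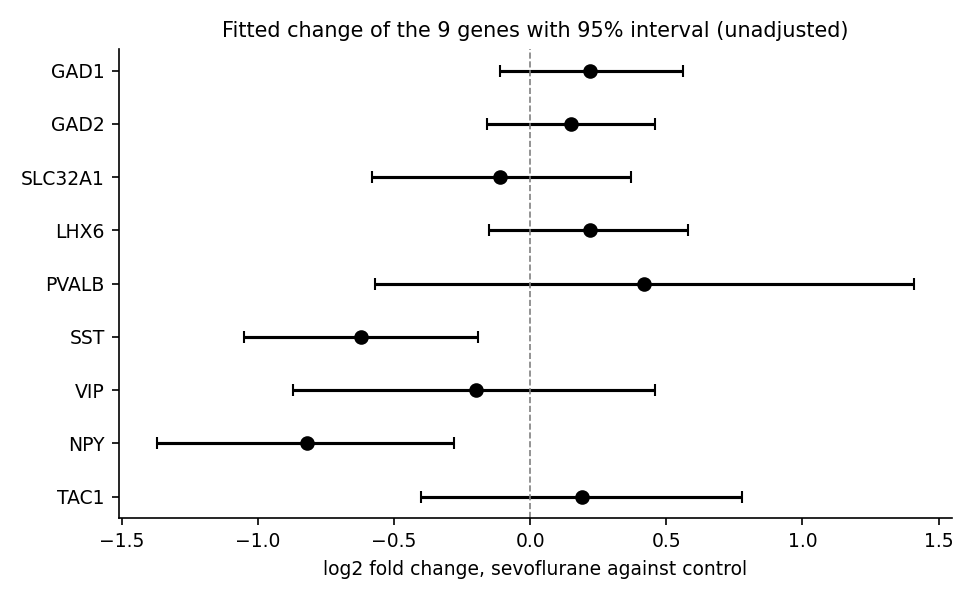
Log2 fold change of sevoflurane against control (horizontal axis) for each of the 9 genes from the fit to all 4 libraries, with bars for the unadjusted 95% interval. The intervals of SST and NPY lie below 0 and the other 7 include it, with PVALB the widest.

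The markers were then set against the 3 genes common to GABAergic neurons, as the log2 level of each gene minus the mean log2 level of GAD1, GAD2 and SLC32A1 in the same library. This takes out only differences that those 3 genes share, and they did not move together in every library. GAD1 over SLC32A1 had a log2 ratio of 2.42 and 1.69 in controls and 2.38 and 2.36 after sevoflurane. The ratios to the mean of the 3 are given here as a description, with no test made. With 2 libraries against 2, a two-sided exact permutation test could not give a p below 0.333. For SST the log2 ratio was -0.03 and 0.44 in controls and -0.53 and -0.44 after sevoflurane, a difference of -0.69. For NPY it was -0.89 and -0.26 in controls and -1.78 and -1.14 after sevoflurane, a difference of -0.88. Both controls lay above both sevoflurane libraries for these 2 genes, as for 24.8% of the 17690 other tested genes set against the same 3. The remaining 4 overlapped, with differences of 0.13 for LHX6, 0.28 for PVALB, -0.31 for VIP and 0.1 for TAC1.

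**Figure D3:**
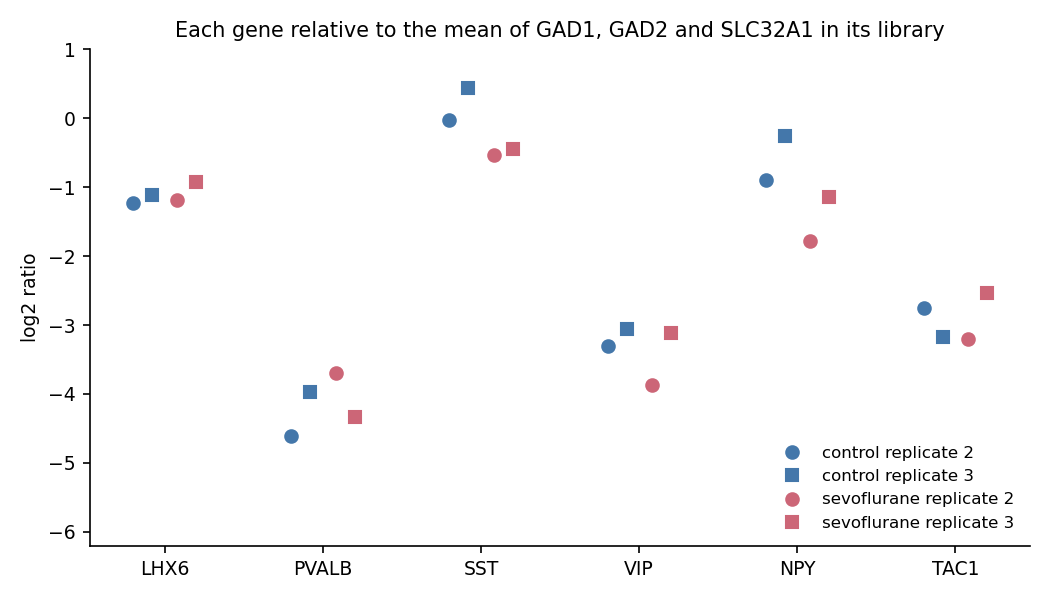
Log2 ratio (vertical axis) of each of 6 genes to the mean of GAD1, GAD2 and SLC32A1 in the same library, with 1 point per library. Within SST and NPY the control points lie above the sevoflurane points and within the other 4 genes they mix; heights are not comparable between genes, which differ in length.

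Likeness between genes was measured as the root mean square difference of their log2 levels over the 4 libraries, each centred on its own mean. GAD1 and GAD2 were the closest pair among the 9, at 0.1, followed by GAD2 and LHX6 at 0.107. Many genes outside the 9 were closer, since GAD2 ranked 460 of 17692 genes by nearness to GAD1 and 1678 by nearness to LHX6. GAD1 ranked 2118 by nearness to GAD2. SST and NPY were each other's nearest among the 9, at 0.225. SST ranked 373 of 17692 genes by nearness to NPY, and NPY ranked 1382 by nearness to SST. PVALB and NPY were the farthest pair, at 0.734. Among all tested genes the nearest were IER3IP1 to GAD1, LDOC1 to SLC32A1, GDAP1 to LHX6, JAK3 to PVALB, OVCH1 to VIP and VIPR1 to TAC1, while the nearest to GAD2, SST and NPY carry only a RefSeq gene number. With 4 libraries such neighbours are a description of these libraries.

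The wider pathway was read from 5 lists holding 83 genes, 75 of which were tested. SLC6A13 was called as higher and 74 were not called, and 6 of the 75 (8%) had an unadjusted p under 0.05, against 9.92% of all tested genes. The median log2 fold change of the 75 was 0.06.

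Of 12 genes of GABA supply, uptake and breakdown, SLC6A13 was higher and 11 were not called (median 0.01). SLC6A13, a GABA and taurine transporter found mainly in the meninges, had 9.08 and 9.42 CPM in controls and 29.6 and 20.3 CPM after sevoflurane, with both sevoflurane libraries above both controls. Its log2 fold change was 1.43 (SE 0.25, edgeR adjusted p = 0.0465), and without sevoflurane replicate 2 it was 1.13 and not called (adjusted p = 0.14). The call was also lost under limma-voom (1.40, adjusted p = 0.0668), without TMM scaling (1.45, adjusted p = 0.0605) and without the filter on low counts (1.43, adjusted p = 0.0885). It held by DESeq2 (1.43, adjusted p = 0.001) and by edgeR's likelihood ratio test (1.43, adjusted p = 1e-04). Markers of meningeal and perivascular fibroblasts (8 of 8 found) summed to 236 and 116 CPM in controls and 600 and 202 CPM after sevoflurane, so the sums overlapped. All 8 had a positive log2 fold change (median 1.12). None was called, and 5 of the 8 had an unadjusted edgeR p under 0.05, against 9.92% of all tested genes. The part of these markers in the value of SLC6A13 was not tested. ABAT, the enzyme that breaks GABA down, had 356 and 368 CPM in controls and 331 and 351 CPM after sevoflurane (-0.09, adjusted p = 0.875), and was chosen after its values were seen. GLUL, the astrocyte enzyme that makes glutamine, had 0.24 (adjusted p = 0.539), and SLC6A11, an astrocyte GABA transporter, had 0.33 (adjusted p = 0.599; 0.17 without sevoflurane replicate 3). GLUL was 0.14 without sevoflurane replicate 2. Beside these 2 genes, astrocyte markers (7 of 7 found) summed to 9280 and 7570 CPM in controls and 5450 and 5560 CPM after sevoflurane. GFAP, the astrocyte intermediate filament protein, was the one called, as lower (-1.41, edgeR adjusted p = 0.00928). GFAP alone made up 5249 and 3877 CPM of the sums in controls and 1531 and 1898 CPM after sevoflurane. Of the 7 markers, 4 had a negative and 3 a positive log2 fold change. The part of these astrocyte values in those of GLUL and SLC6A11 was not tested.

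Of 21 transcription factors and lineage genes of interneurons, 18 were tested and none was called by edgeR, DESeq2 or limma-voom (median -0.08, 2 with an unadjusted p under 0.05). SATB1, a chromatin organiser needed for SST cells to mature, had 324 and 326 CPM in controls and 246 and 262 CPM after sevoflurane. Its log2 fold change was -0.36 (SE 0.11, edgeR adjusted p = 0.303), with both controls above. SP8, a factor of interneurons from the caudal eminence, had -0.80 (SE 0.41, adjusted p = 0.589). LHX8 had no read in any library, and NKX2-1 and GSX2, which act in progenitors, were too low to test.

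Of 25 other subclass markers, CORT was not matched and the 24 others were tested, with none called by edgeR, DESeq2 or limma-voom (median 0.07, 1 with an unadjusted p under 0.05). That gene was CRH, corticotropin-releasing hormone, a peptide of some VIP and SST interneurons. It had 14.1 and 15.5 CPM in controls and 9.31 and 7.04 CPM after sevoflurane, with both controls above both sevoflurane libraries. Its log2 fold change was -0.85 (SE 0.26, -1.43 to -0.27, edgeR adjusted p = 0.271), beside -0.62 for SST and -0.82 for NPY. Other peptide genes of this list had fitted values of -0.16 for CCK, 0.06 for PNOC, 0.12 for TAC3 and 0.37 for PENK. TAC3 rested on few reads, 23 and 8 in controls and 23 and 20 after sevoflurane. Its interval of -1.23 to 1.47 held the value of CRH, so a difference between TAC3 and CRH is not shown. Of the 24 tested genes, 16 had a positive and 8 a negative log2 fold change. KCNC1, a potassium channel of fast-spiking cells, had 0.37 (edgeR adjusted p = 0.523), and HTR3A, the serotonin receptor of caudal eminence interneurons, 1.02 (SE 0.57, adjusted p = 0.634). HTR3A rested on few reads, 20 and 8 in controls and 47 and 26 after sevoflurane. With single libraries left out HTR3A ranged from 0.53 without sevoflurane replicate 2 to 1.54 without control replicate 2, with 0.67 without control replicate 3.

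Of 14 peptide receptors, 10 were tested and none was called by edgeR, DESeq2 or limma-voom (median 0.09, 1 with an unadjusted p under 0.05). The somatostatin receptors SSTR1, SSTR3 and SSTR4 were the 3 of the 10 with both sevoflurane libraries above both controls, an order held by 20.8% of all tested genes. SSTR1 had a log2 fold change of 0.05 (edgeR adjusted p = 0.944). SSTR3 had 17.6 and 23.2 CPM in controls and 24.9 and 33.0 CPM after sevoflurane (0.51, SE 0.23, edgeR adjusted p = 0.5). SSTR4 had 0.63 (adjusted p = 0.58) and SSTR2 0.30 (adjusted p = 0.635). Without sevoflurane replicate 3, SSTR3 had 0.29 and SSTR2 had 0.11, and without control replicate 2 they had 0.32 and 0.16. Of 11 genes of peptide processing and dense-core vesicles, none was called by these 3 tools (median 0.08, 1 with an unadjusted p under 0.05). VGF, a secreted neuropeptide precursor, had 179 and 260 CPM in controls and 173 and 121 CPM after sevoflurane (-0.58, SE 0.21, adjusted p = 0.378). Like SST it was called without control replicate 2 (-0.82, adjusted p = 0.0231) and was -0.28 without control replicate 3 and -0.34 without sevoflurane replicate 3. PCSK1N, an inhibitor of a prohormone convertase, had -0.41 (adjusted p = 0.658) and CPE, the carboxypeptidase that trims peptides, -0.34 (adjusted p = 0.651). Both were called as lower without control replicate 2 (-0.80 and -0.63, adjusted p = 0.00232 and 0.0187) and were 0.12 and 0.02 without control replicate 3, in which each had its highest level.

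**Figure D4:**
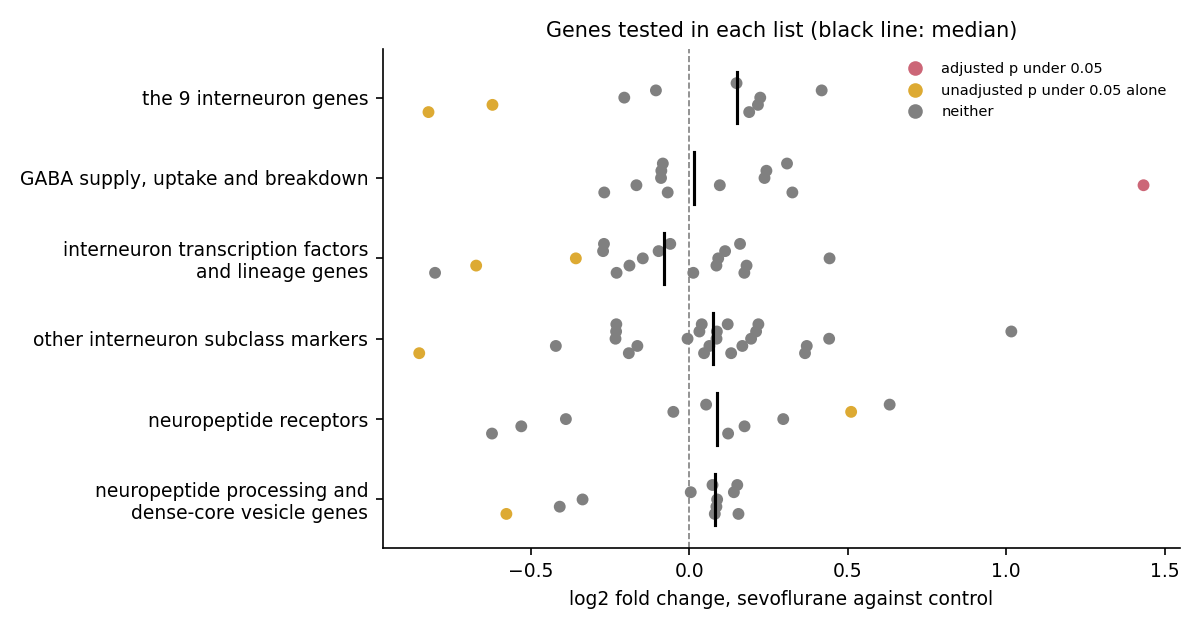
Log2 fold change (horizontal axis) of each tested gene in the set of 9 and in the 5 pathway lists, with a black line at the list median and colour for the test. SLC6A13 is the one gene past the adjusted threshold, and the medians lie between -0.08 and 0.15.

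The values of SST and NPY moved little with the tool and much with the library. Under the 8 other tools and settings SST lay between -0.62 and -0.58 and NPY between -0.82 and -0.77 on the log2 scale, and with 1 library left out they lay between -0.87 and -0.32 and between -1.14 and -0.43. Over all 12 alternatives the adjusted p ranged from 0.00565 to 0.686 for SST and from 0.00435 to 0.627 for NPY. GAD1, GAD2 and LHX6 stayed above 0 in all 12, between 0.04 and 0.39, with no call. For GAD2 and LHX6 both sevoflurane libraries lay above both controls, so leaving out a single library could hardly turn the sign.

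**Figure D5:**
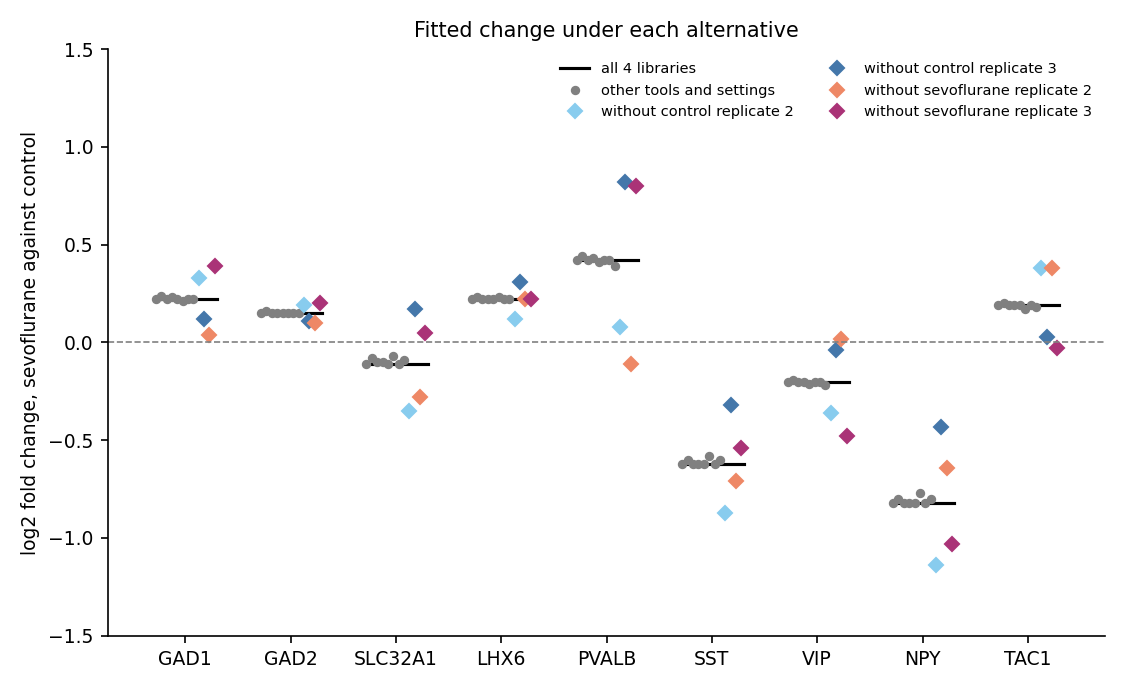
Log2 fold change (vertical axis) of each of the 9 genes in the fit to all 4 libraries (black line), under 8 other tools and settings (grey) and with each library left out (coloured diamonds). Grey points stay close to the line for every gene, whereas leaving out control replicate 3 moves SST to -0.32 and NPY to -0.43.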

How the data were processed

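The authors deposited raw counts of reads per gene, 1 column for each of the 4 libraries. Per the submitters' processing notes, HISAT2 was the aligner (version not given in the sources used here, nor are the counter, build, annotation and strand setting). The analysis used edgeR 4.0.16 under R 4.3.3. Its filter (10 counts at the median depth, 15 in total) left 17693 of 33618 genes, all 9 genes described here among them. Libraries were scaled by TMM and group was the only term. Log2 levels used a prior count of 2, and intervals on fold changes use the fit's degrees of freedom. Poisson intervals cover counting error only.

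Other settings tried were scaling by DESeq2's size factors or by library size, tests by DESeq2 1.42.0, limma-voom (limma 3.58.1) and edgeR's likelihood ratio, testing every gene with a read or those with a mean of 5 CPM and 1 CPM in 2 libraries, a replicate block, and each library left out. The steps were tested on simulated counts. The 9 genes and the lists were chosen with earlier results of these data known. In each pathway list, called genes and the 3 others with the smallest p are named, except a few that are not reported here; other named genes were chosen after their values were seen. Of the listed genes, 1 was matched by a RefSeq gene number and 1 was not found. No sequence was used, so promoters were not analysed here.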

Additional observations from a re-analysis of the deposited data

How the results depend on the processing

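All 9 genes kept an adjusted p above 0.05 under both other scalings, without a filter and with a stricter one, and by DESeq2, limma-voom and the likelihood ratio test. The replicate numbers are not stated to pair the libraries, and the difference between replicates 2 and 3 in controls correlated at 0.01 across genes with that in sevoflurane. With the replicate block in edgeR, 2 of the 9 were called, SST (-0.60, adjusted p = 0.0267) and NPY (-0.80, adjusted p = 0.00435). The block also called 2 pathway genes, SLC6A13 (1.42, adjusted p = 1.23e-05) and VGF (-0.57, adjusted p = 0.0233). Among all tested genes it called 511 (2.89%). With 1 library left out, 0 to 2 of the 9, 0 to 6 pathway genes and 178 to 607 of all genes were called. All genes called were 60 with no filter, 279 by DESeq2 and 441 by the likelihood ratio test, against 106. Pathway genes called were 0 with library size alone, no filter and limma-voom. With 1 library left out the log2 fold change changed sign for SLC32A1 (-0.35 to 0.17), PVALB (-0.11 to 0.82), VIP (-0.48 to 0.02) and TAC1 (-0.03 to 0.38). Among pathway genes it did so for CPE (-0.63 to 0.02), PCSK1N (-0.80 to 0.12), RELN (-0.45 to 0.95), NDNF (-0.13 to 1.48), SYT2 (-0.49 to 1.43) and CHGA (-0.13 to 0.51). The cause was not tested. The alternatives were applied to pathway genes after the data were seen. Counting error alone gives the log2 fold change of PVALB an SE of 0.206, the largest of the 9, beside a fitted SE of 0.44.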

Other observations

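Some interneuron genes outside the set of 9 differed more between the 2 control libraries than between groups. They were chosen after their values were seen, for that difference. With 1 control left out, the remaining control is assumed to vary like the other libraries, so a call in such a fit shows how far the result rests on that library and is not a finding on sevoflurane. RELN, the secreted protein reelin of layer 1 and other interneurons, had 352 and 133 CPM in controls (replicate 2, then replicate 3) and 260.1 and 255.6 CPM after sevoflurane. It was called as higher after sevoflurane without control replicate 2 (log2 fold change 0.95, edgeR adjusted p = 0.000701) and as lower without control replicate 3 (-0.45, adjusted p = 0.0272). NDNF, a marker of layer 1 neurogliaform cells, had 28.0 and 9.15 CPM in controls and 31.5 and 19.7 CPM after sevoflurane. NDNF was called as higher without control replicate 2 (1.48, adjusted p = 0.0303) and had -0.13 without control replicate 3. The summed fibroblast markers were also lowest in control replicate 3, at 116 CPM against 202 to 600 CPM in the other 3 libraries.

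SYT2, a synaptotagmin of fast-spiking terminals, showed the reverse, with 9.08 and 34.4 CPM in controls and 22.5 and 26.5 CPM after sevoflurane. It was called as higher without control replicate 3 (1.43, edgeR adjusted p = 0.00874) and had -0.49 without control replicate 2. Control replicate 2 was the lowest library of PVALB, SYT2 and KCNC1, and also of the summed general neuron markers (7380 CPM). KCNC2, a potassium channel of the same list as KCNC1, was lowest in control replicate 3 (249 CPM). CHGA, a core protein of dense-core vesicles, had 348 and 540 CPM in controls and 507 and 481 CPM after sevoflurane, and was called as higher without control replicate 3 (0.51, adjusted p = 0.0138). The part of sampled layers or tissue in these values was not tested.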
